A study of Mus musculus with 11 samples.

Results

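The single-base changes Tyr R77L, Arap2 G230W and Hebp1 V86L were carried by all or nearly all reads of the cultured KPP-eGFP line. KPP-eGFP is a clonal mouse pancreatic ductal adenocarcinoma line, derived from a primary tumour of a genetically engineered mouse and given a green fluorescent reporter with a PiggyBac vector. Its exome was sequenced in 3 culture libraries and in 5 STAMP tumours, which grow from cells seeded into laser-made pores of the mouse ear. The tumours were taken 3 weeks after implantation from young adult male mice. They were labelled immune-inflamed (tumours 1-3 and 2-1), immune-excluded (tumours 1-4 and 2-2) or immune-desert (tumour 2-3), by where T cells lay in them. Which mouse strain bore these 5 tumours is not stated, nor whether each library stands for its own culture or mouse. The spreads and p-values given therefore measure only how these libraries differ, and that may be technical. A biopsy also holds host cells, and a legend of the study speaks of pooled biopsies. The 3 spleen libraries served as the normal DNA for calling and have no calls of their own.

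The 3 variants were selected on the measured frequencies. They are the called variants of Tyr, Arap2 and Hebp1, each with a mean variant allele frequency above 0.75 in the culture libraries and each outside the dense runs of variants on chromosomes 4, 6 and 8. The variant allele frequency is the fraction of reads at the site that carry the alternate base. A dense run was at least 20 variants of culture mean 0.25 or more with gaps of at most 5 Mb. The table holds 621 variants in 304 genes, of which 128 had a culture mean above 0.75, and 4 of these 128 lay outside the dense runs. The other one was R676Q of 2210408I21Rik on chromosome 13 (position 77267816). The 3 variants were also paired for what was seen in the tumours, where Tyr was far below its culture level and Arap2 and Hebp1 were close to theirs. The culture and tumour frequencies below are therefore a description with no test. The lowest culture mean inside the threshold was 0.993, for Hebp1, and the highest outside it was 0.565 ± 0.129 (SD, n = 3), for Ccdc158 K1013T, followed by 0.517 ± 0.0499 (SD, n = 3) for Fam196b E476G.

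Tyr encodes tyrosinase, the copper enzyme that starts melanin synthesis in pigment cells. Mice without tyrosinase activity are albino, and an arginine-to-leucine change at this residue is the known albino allele of C57BL/6 mice. Arap2 encodes a protein with an ARF GTPase-activating domain, which switches off ARF6, a small GTPase of membrane traffic. Hebp1 encodes a haem-binding protein of the cytosol, whose amino-terminal peptide attracts leukocytes through formyl peptide receptors.

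The codon changes are shown because they identify the alleles. Each run below gives 41 bases of GRCm38 on the coding strand, 5′ to 3′, with the altered codon in capitals, first as in the reference and then with the alternate base. All of these genes lie on the minus strand, and each change is a missense change within a coding exon.
Tyr R77L, chr7:87493101-87493141, reference: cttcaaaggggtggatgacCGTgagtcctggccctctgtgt
Tyr R77L, alternate: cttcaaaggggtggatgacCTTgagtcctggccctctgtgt
Arap2 G230W, chr5:62748967-62749007, reference: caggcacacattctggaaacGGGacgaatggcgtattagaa
Arap2 G230W, alternate: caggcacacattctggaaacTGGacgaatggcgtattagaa
Hebp1 V86L, chr6:135152943-135152983, reference: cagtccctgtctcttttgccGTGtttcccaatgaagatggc
Hebp1 V86L, alternate: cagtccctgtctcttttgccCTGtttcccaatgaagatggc

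Tyr (ENSMUSG00000004651) spans 87424771 to 87493512 on chromosome 7, and the variant at 87493121 lies in exon 1 of 5, in a protein of 533 residues. Arap2 (ENSMUSG00000037999) spans 62602445 to 62766159 on chromosome 5, and the variant at 62748987 lies in exon 2 of 33, in a protein of 1703 residues. Hebp1 (ENSMUSG00000042770) spans 135137522 to 135198022 on chromosome 6, and the variant at 135152963 lies in exon 3 of 4, in a protein of 190 residues. The spleen fraction was 0 beside every call of all 3 variants. None (0 of 3) had a number in the column of known variants, against 44 of the 128 variants above 0.75 in culture (34.4%) and 263 of all 621 (42.4%). Of the 4 outside the dense runs 0 had one, so R676Q of 2210408I21Rik shared this. All 3 were transversions, as were 283 of the 590 single-base variants.

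The Arap2 site has a near-identical copy. The 31 bases centred on the reference base occurred once in the chromosomes of GRCm38 for Tyr and for Hebp1, and at 2 places for Arap2, while the 31 bases with the alternate base occurred 0 times for all 3. The second place lies at 11091390 on chromosome 19, within Gm336, a processed pseudogene annotated from 11090598 to 11092077. This copy carries the reference base at the variant. It is identical to the Arap2 site over a run of 244 bases, with 167 identical bases on one side and 76 on the other, and over the 1041 bases of the exon it differed at 7 (99.3% identity). The reads were 75 bases long, so a read can lie wholly within this run. The frequencies of Arap2 are therefore uncertain, and the part of the copy in them was not tested. With pieces of 20 bases from the 200 bases around each site, 0 other places held 3 or more pieces for Tyr and 0 for Hebp1.

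In culture, Tyr R77L was at 1 in all 3 libraries. Among the tumours its frequency was 0.138 in the immune-inflamed tumour 1-3 and 0.271 in 2-1, 0.574 and 0.193 in the immune-excluded tumours 1-4 and 2-2, and 0.766 in the immune-desert tumour. Every tumour was below every culture library, and the inflamed values overlapped the excluded ones. The reference allele of tyrosinase thus made up between 0.234 and 0.862 of the tumours' reads and 0 of the culture's. The ratio of tumour to culture mean had a median of 0.271 (0.388 ± 0.270, mean and SD, n = 5).

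Arap2 G230W was at 1 in all 3 culture libraries. Among the tumours its frequency was 0.974 in the immune-inflamed tumour 1-3 and 0.849 in 2-1, 0.988 and 0.892 in the immune-excluded tumours 1-4 and 2-2, and 0.942 in the immune-desert tumour. All tumours were below the culture libraries, but by at most 0.151, in the inflamed tumour 2-1. The ratio of tumour to culture mean had a median of 0.942 (0.929 ± 0.0581, mean and SD, n = 5).

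Hebp1 V86L was at 0.987, 1 and 0.993 in the culture libraries. Among the tumours its frequency was 1 in the immune-inflamed tumour 1-3 and 0.923 in 2-1, 0.981 and 0.902 in the immune-excluded tumours 1-4 and 2-2, and 0.955 in the immune-desert tumour. The inflamed tumour 1-3 was as high as the highest culture library, and the other 4 tumours were below all 3 culture libraries. The ratio of tumour to culture mean had a median of 0.962 (0.958 ± 0.0405, mean and SD, n = 5). Hebp1 and Arap2 differed from each other by at most 0.0736 in any library, with Arap2 the lower in that one, the inflamed tumour 2-1.

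**Figure D1:**
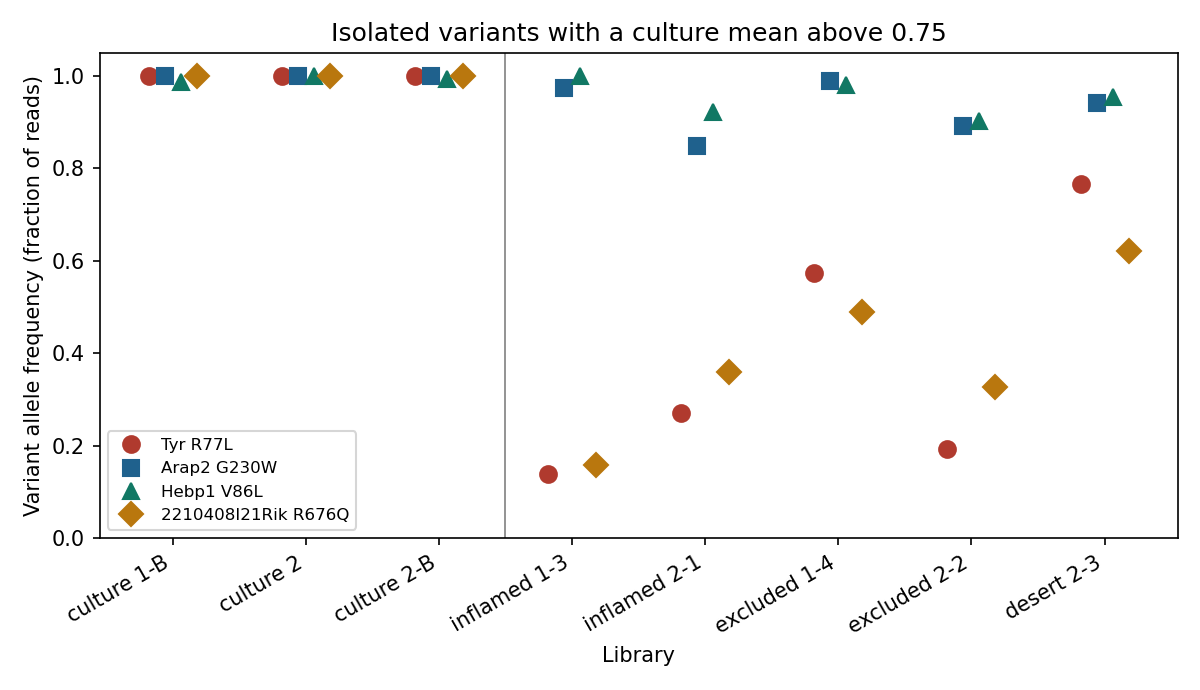
Variant allele frequency (fraction of reads, vertical axis) of the 4 variants above 0.75 in culture outside the dense runs, with 1 point per variant in each library along the horizontal axis and a grey line between culture and tumours. Tyr and 2210408I21Rik are lower in every tumour than in culture, between 0.138 and 0.766 for Tyr, while Arap2 and Hebp1 are at 0.849 or above.

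The genotype mark deposited with each call adds nothing to these frequencies, since over all calls the lowest frequency marked 1/1 was 0.702 and the highest marked 0/1 was 0.7. Arap2 and Hebp1 were marked 1/1 in all 8 libraries, and Tyr was marked 1/1 in culture and in the desert tumour and 0/1 in the other 4 tumours. The caller's tier was 1, the stricter setting, for all of their calls except Tyr in the inflamed tumour 2-1 and Hebp1 in the excluded tumour 2-2, which were tier 2. A quality value was given for Arap2 (1648) and Hebp1 (4744) but not for Tyr.

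Tyr followed the order of the tumours set by the bulk of the variants. Over the 258 variants called in all 8 libraries, the median ratio of tumour to culture mean was 0.627 in the desert tumour, 0.477 in the excluded tumour 1-4, 0.295 in the inflamed tumour 2-1, 0.278 in the excluded tumour 2-2 and 0.246 in the inflamed tumour 1-3. Tyr, with ratios of 0.766, 0.574, 0.271, 0.193 and 0.138, had the same order with wider steps, being 1.22 times the median ratio in the desert tumour and 0.561 times in the inflamed tumour 1-3. R676Q of 2210408I21Rik was at 1 in all 3 culture libraries and at 0.622, 0.489, 0.359, 0.328 and 0.159 in the same tumours, again in this order. Arap2 had another order, from the excluded tumour 1-4 through inflamed 1-3, desert and excluded 2-2 to inflamed 2-1. Hebp1 ran from inflamed 1-3 through excluded 1-4, desert and inflamed 2-1 to excluded 2-2. No depth is given, so neighbours in these orders cannot be told apart by counting error.

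Against the other variants above 0.75 in culture, Tyr lay inside their range in every tumour. These numbered 125, of which 95 to 114 were called in a given tumour. In the desert tumour their median was 0.601, and 9 of 114 exceeded Tyr. In the excluded tumour 1-4 their median was 0.420, and 5 of 106 exceeded it. In the other 3 tumours their medians were between 0.218 and 0.283, and Tyr was below the median each time, with differences of -0.0802 in the inflamed tumour 1-3, -0.0116 in 2-1 and -0.0710 in the excluded tumour 2-2. In these tumours, in the same order, 74 of 96, 53 of 95 and 74 of 95 exceeded Tyr. The median over the tumours of Tyr minus these medians was -0.0116. It hides that Tyr was high in the range in desert and excluded 1-4 and low in inflamed 1-3 and excluded 2-2. Against the variants above 0.75 in the dense run of chromosome 6 alone, 7 of 77 and 5 of 75 exceeded Tyr in desert and excluded 1-4. In inflamed 1-3, inflamed 2-1 and excluded 2-2 these were 65 of 70, 47 of 71 and 66 of 73.

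Arap2 and Hebp1 lay above that range. In each of the 5 tumours 0 of the other variants above 0.75 in culture exceeded either of them. The median over the tumours of the difference from the other variants' median was 0.568 for Arap2 and 0.638 for Hebp1. The gap was smallest in the desert tumour, at 0.341 for Arap2 and 0.354 for Hebp1, where the highest other variant reached 0.941 against 0.942 for Arap2. The largest gaps, 0.756 and 0.782, were in the inflamed tumour 1-3, the tumour with the lowest median ratio.

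**Figure D2:**
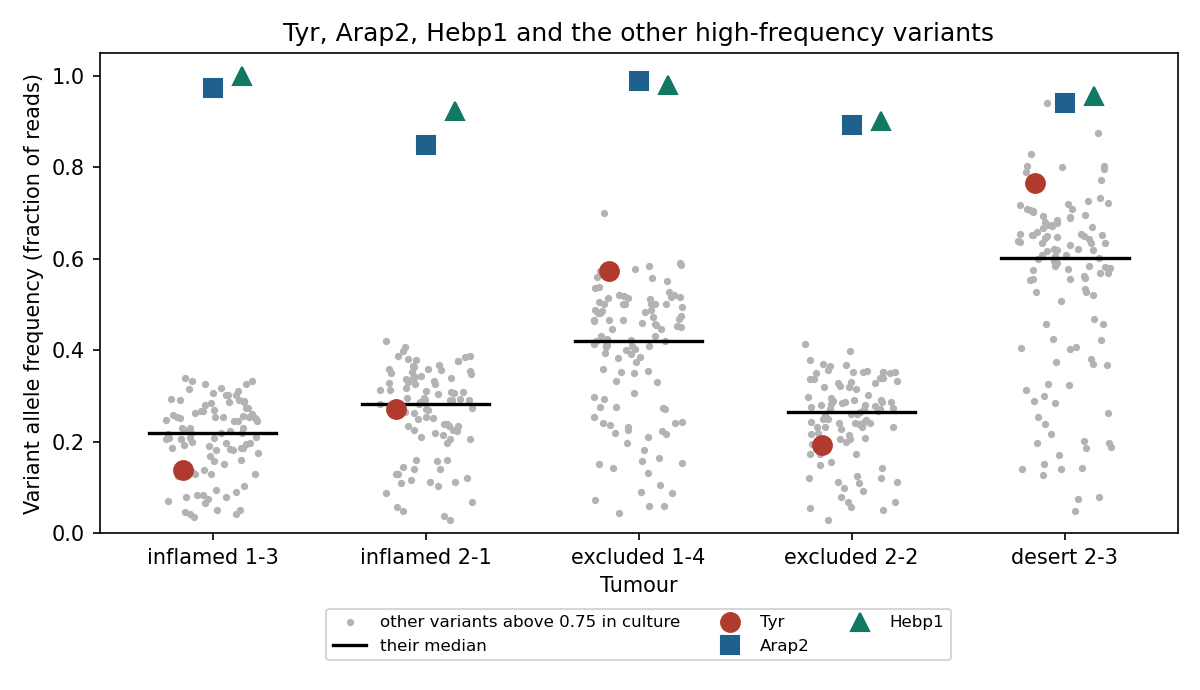
Variant allele frequency (fraction of reads, vertical axis) in each of the 5 tumours (horizontal axis), where grey points are the other variants with a culture mean above 0.75, spread sideways for visibility, black bars are their medians, and coloured points are Tyr, Arap2 and Hebp1. Tyr sits among the grey points in every tumour, and Arap2 and Hebp1 sit above all of them.

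Of the 258 variants called in all 5 tumours, 3 kept a ratio above 0.8 in every tumour, namely Arap2, Hebp1 and Sfi1 P1003S. Sfi1, a centriole-associated gene, was at a mean of only 0.0489 in culture and between 0.0402 and 0.0440 in the tumours, so its ratio rests on small frequencies. The next variant, Tlr13 F448V, had a lowest ratio of 0.415. Sfi1 and Tlr13 were named after their values were seen. The lowest ratio per variant among the others above 0.75 in culture reached at most 0.329.

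**Figure D3:**
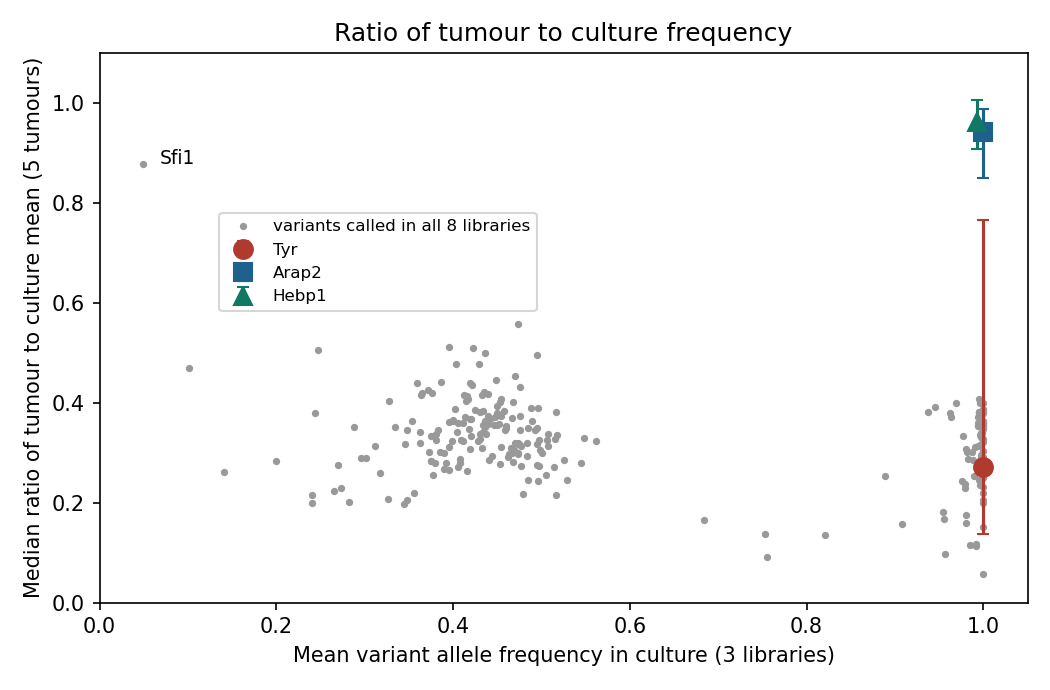
Median over the 5 tumours of the ratio of tumour frequency to culture mean (vertical axis, no unit) against the mean variant allele frequency in culture (horizontal axis) for the 258 variants called in all 8 libraries, with bars from the lowest to the highest tumour for Tyr, Arap2 and Hebp1. Arap2 and Hebp1 lie at 0.942 and 0.962, apart from every other variant of high culture frequency, and Tyr lies at 0.271 among them.

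Likeness was measured as the mean absolute difference in variant allele frequency over the 8 libraries, among the other 257 variants called in all of them. Arap2 and Hebp1 were each other's nearest, 0.0188 apart. The next for both were Smco2 L393V and Tm7sf3 I318V, at 0.289 and 0.292 from Arap2 and at 0.306 and 0.309 from Hebp1. The nearest to Tyr was Tm7sf3 L425L at 0.0313, followed by Ppfibp1 D400E and Ccdc91 I441V at 0.0416 and 0.0417. All of the variants nearest to Tyr lie in the dense run of chromosome 6, from 145138202 to 148425959, and none on chromosome 7. Tm7sf3 L425L was at a mean of 1 in culture and at 0.103, 0.255, 0.482, 0.271 and 0.796 in the inflamed tumours 1-3 and 2-1, the excluded tumours 1-4 and 2-2 and the desert tumour.

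The nearest called variants on either side did not share the frequencies of the 3. Tyr was the only one (1 of 22) of the variants on chromosome 7 with a culture mean above 0.75. Its neighbours were Vmn2r69 L452V, 2.08 Mb away at 0.516 ± 0.120 (SD, n = 3) in culture, and Wnt11 L48V, 11.4 Mb away on the other side at 0.294 ± 0.0503 (SD, n = 3). Vmn2r69, a vomeronasal receptor gene, was called in all 5 tumours and was lower than in culture in each, with a highest ratio of 0.447. Wnt11, a Wnt ligand gene, was called in 1 tumour.

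Arap2 was likewise the only one (1 of 12) on chromosome 5 with a culture mean above 0.75. Its neighbours were Rbm47 T257P, 3.28 Mb away at 0.0834 ± 0.0233 (SD, n = 3), and Gm7361 T52S, 36.5 Mb away at 0.0299 in the 1 culture library where it was called. Neither was called in a tumour.

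Hebp1 lay 9.99 Mb from the dense run of chromosome 6, which holds the other 79 of the 80 variants above 0.75 on that chromosome. Between them lay Slc15a5 T314M, 2.89 Mb from Hebp1 at 0.466 ± 0.0509 (SD, n = 3) in culture. Slc15a5, a solute carrier gene, was at 0.139 and 0.127 in the inflamed tumours 1-3 and 2-1, 0.258 and 0.0947 in the excluded tumours 1-4 and 2-2 and 0.366 in the desert tumour. On the other side Kcna5 I484S, in a potassium channel gene, lay 8.62 Mb away at 0.159 ± 0.0171 (SD, n = 3) and was called in 1 tumour. Hebp1 thus stood apart both from its nearest neighbours and from the dense run, whose variants above 0.75 had tumour medians of 0.238 to 0.640.

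**Figure D4:**
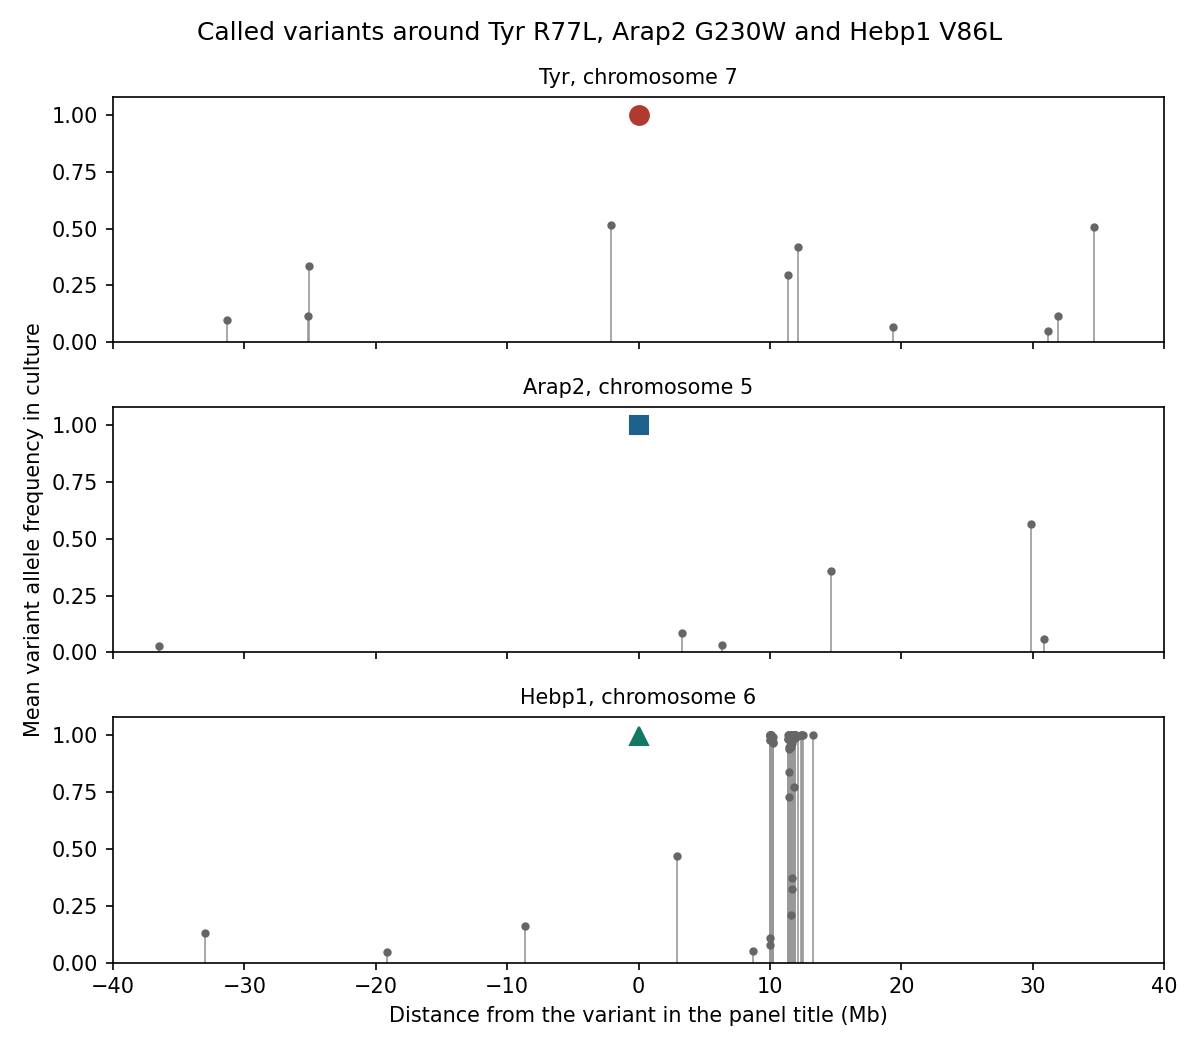
Mean variant allele frequency in culture (vertical axis, fraction of reads) of each called variant within 40 Mb of Tyr R77L, Arap2 G230W and Hebp1 V86L, which are the large coloured points at 0 on the horizontal axis of distance in Mb. The nearest variants on both sides of each are at 0.516 or below, and the dense run of chromosome 6 starts 9.99 Mb from Hebp1.

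Tyr was compared between immune phenotypes on scaled values, and it passed the test in neither comparison. The question was whether its frequency follows the immune phenotype, a contrast that the choice of the variants did not use. It was tested with limma over all 258 variants called in the 8 libraries, after dividing each tumour by its median ratio to culture. Between inflamed and excluded tumours 0 of 258 variants passed an adjusted p of 0.05 (0% called), against 38 at an unadjusted p under 0.05. The scaled values of Tyr were 0.561 and 0.917 in the inflamed and 1.20 and 0.695 in the excluded tumours, a difference of -0.211 (SE 0.165, limma adjusted p = 0.596). With the desert tumour at 1.22, these scaled values still rose in the order of the tumours' median ratios. The scaling thus did not take the overall level of a tumour out of Tyr. In both comparisons this level and the immune phenotype cannot be told apart. Unscaled, 0 of 258 variants passed as well (0% called), with 19 at an unadjusted p under 0.05 in limma. With the culture libraries also left out, 0 were at an unadjusted p under 0.05.

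Arap2 and Hebp1 were chosen as variants that stayed close to culture in every tumour, which leaves little room for a difference between phenotypes, so theirs are given unscaled and with no test. The inflamed mean minus the excluded mean was -0.0288 for Arap2 and 0.0198 for Hebp1. The desert tumour minus the mean of the inflamed and excluded groups was 0.0157 for Arap2 and 0.00383 for Hebp1.

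The immune-desert group is 1 tumour, assumed to vary like the others. After scaling, 0 of 258 variants passed between it and the inflamed and excluded tumours in limma (0% called), and 18 had an unadjusted p under 0.05. The scaled value of Tyr was 0.377 higher in the desert tumour (SE 0.184, limma adjusted p = 0.595). Unscaled, Tyr was 0.472 higher there, and the call rests on which libraries give the spread. Most variants (232 of 258) were highest in the desert tumour, whose median ratio was 0.627 against 0.246 to 0.477 in the others. The unscaled p-values and counts that follow take variants of the same tumour as independent, so no conclusion is drawn from them. With the culture libraries, which were at 1 for Tyr with no spread, the SE was 0.0816 (limma adjusted p = 8.39e-07), and 144 of the 258 variants passed, all higher in the desert tumour (55.8% called). Without them the SE was 0.144 (limma adjusted p = 0.0299), and 20 of the 258 variants passed, Tyr among them (7.75% called).

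The first number of the tumour names, which the labels do not explain, was also set against the frequencies, after the values were seen. Both tumours numbered 1 were above all 3 tumours numbered 2 for Arap2 (0.974 and 0.988 against 0.849 to 0.942) and for Hebp1 (1 and 0.981 against 0.902 to 0.955), but not for Tyr. They were the only 2 of the 258 variants with that order (0.775%). In 232 of the 258 the highest value was that of the desert tumour, which is numbered 2, so few other variants could have shown it. Neither a host nor a batch is named for these numbers, and their part in the values was not tested.

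Related genes were searched for other calls. Of 27 pigmentation genes (such as Tyrp1, Dct, Oca2, Slc45a2 and Mitf), Tyr had a call (1 of 27). Of 14 genes of haem binding, haem synthesis and formyl peptide receptors, Hebp1 had one (1 of 14). Of 4 genes known to differ between C57BL/6 substrains (Crb1, Cyfip2, Nnt and Nlrp12), 0 had a call. Over all 21924 protein-coding gene names of the annotation, 287 (1.31%) had a call, so lists this short would hold few at that share, and Tyr and Hebp1 were chosen for their own calls. Nothing is read from the counts. Only variants that passed the authors' calling against spleen are listed, so a gene without a call is not shown to be identical between the line and the reference.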

How the data were processed

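Whole exomes were captured and sequenced by the authors as paired reads of 75 bases, mapped to GRCm38 with BWA, realigned and duplicate-marked with GATK, and called with Strelka against spleen DNA of the wild-type strain. No version of these tools is named in the labels or methods. The authors restricted tumour calls to variants seen in the line. The deposited values are fractions of reads (the variant allele frequency and the spleen fraction), a score for the tier (1 or 2), a quality score and a genotype mark. A further 6 columns per library, of which 1 holds values, were left unused. The table holds 0 depth values, so depth is unknown and no counting interval is given.

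The members and gene lists were chosen with earlier results of these data known. Genes were named by a rule, namely the 3 members, the 3 variants most alike to each, other isolated variants above 0.75 in culture, the nearest called variant on each side, those just below 0.75 and listed genes with a call. A further gene list is not reported here. Frequencies were compared with limma 3.58.1 (lmFit, eBayes with trend, Benjamini-Hochberg) in R 4.3.3. This was 1 fit with culture, inflamed, excluded and desert as groups. It was tested on simulated variants drawn independently of each other, so those tests do not cover variants that vary together within a tumour. Gene spans and exons come from GENCODE and sequence from RefSeq's GRCm38. Alternatives were no scaling, a replicate block, tumours only, single-base variants, other thresholds and leaving out each library. Python 3.11, numpy 2.4.6, pandas 2.3.3 and matplotlib 3.10.9 were used.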

Additional observations from a re-analysis of the deposited data

How the results depend on the processing

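The 3 variants were found by the rule under all 6 alternatives to it, with R676Q of 2210408I21Rik as the other isolated variant each time. The ratios and the differences from other variants moved by less than the spread between tumours in all 54 of their alternatives. Some of these could not move a ratio, since the spleen fraction was 0 at every call and Tyr and Arap2 were at 1 in every culture library. For Tyr the spread is also wide, with an SD of 0.270 at a median ratio of 0.271. Leaving out 1 library gave ratios of 0.232 to 0.423 for Tyr, 0.917 to 0.958 for Arap2 and 0.945 to 0.974 for Hebp1, and differences from the other variants of -0.0413 to 0.0713 for Tyr, so that its sign depends on the tumours included, of 0.567 to 0.598 for Arap2 and of 0.599 to 0.639 for Hebp1.

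Without scaling, 144 variants rather than 0 were called for the desert tumour, and 20 without scaling and culture, which was tried once the values were known. These counts rest on 1 desert tumour and take its variants as independent, so they are not read as a result. Arap2 and Hebp1 stayed close to culture in every tumour, so dividing by a tumour's median ratio raised them most where that ratio was lowest. Their scaled differences follow from this step. Between inflamed and excluded tumours they were 0.774 for Arap2 and 0.942 for Hebp1, and in the desert tumour -1.53 and -1.60. Unscaled, with or without culture, these were -0.0288 and 0.0198, and 0.0157 and 0.00383. Leaving out 1 library called 0 to 15 variants between inflamed and excluded tumours and 0 to 2 for the desert tumour. The 15 came without the inflamed tumour 2-1, and 6, 6 and 4 came without inflamed 1-3, excluded 1-4 and excluded 2-2. None of the 3 variants was called in these, but Tyr, between inflamed and excluded tumours, ranged from -0.466 to 0.0438, turning without the excluded tumour 1-4. With the tumours' first number as a replicate block, 0 variants were called in either comparison, and limma's adjusted p for Tyr was 0.789 between inflamed and excluded tumours. The difference between the inflamed tumours and that between the excluded tumours correlated at -0.183 over 258 variants. This rests on 1 pair of tumours per group, so it does not show how same-numbered tumours vary. A crossed replicate block, chosen after seeing the data, swapped the numbers of the excluded tumours, a pairing that the labels do not give. Only Arap2 and Hebp1 passed in it, on values that the scaling had raised above 1, so it is not read as a result. The causes of the shifts in Tyr were not tested.

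Depth is unknown, the desert group is 1 tumour, and the pseudogene copy makes the Arap2 values uncertain.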
